A study of Mus musculus with 5 samples.

Results

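Dendritic-like cells were a small and heterogeneous population of MMTV-PyMT mammary tumors, 107 of the 25751 cells kept for analysis out of 30340 deposited. They were chosen by a gate on unique molecular identifiers (UMIs, single counted transcripts). A gated cell held at least 2 UMIs in sum over Flt3, Xcr1, Clec9a, Cd209a, Fscn1 and Ccr7, at least 10 over the MHC class II genes H2-Ab1, H2-Aa and Cd74, at most 1 over the complement genes C1qa, C1qb and C1qc, none of Cd3d, Cd3e, Cd3g or Cd79a, and at most 3 over the keratins Krt8 and Krt18. Kept cells had at least 1000 gene UMIs, no more than the study's own upper limit, and at most 20% mitochondrial UMIs. Because the gate read expression, the levels of its own genes describe how the cells were found, and every contrast between gated and other cells, or between groups of gated cells, is given as a description without a test.

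Dendritic cells take up antigen, display it on MHC molecules and carry it to T cells. Type 1 conventional dendritic cells, marked by Xcr1 and Clec9a, depend on the factors Irf8 and Batf3 and are known for presenting engulfed tumor antigen to CD8 T cells. Type 2 cells rely on Irf4 and present mainly to CD4 T cells, and the antigen receptor gene Cd209a marks some of them and some monocyte-derived cells. Either type can mature, and mature cells turn on Fscn1 and the lymph node homing receptor Ccr7. Plasmacytoid dendritic cells are a separate lineage known for secreting type I interferon.

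The tumors came from FVB/N mice in which the mouse mammary tumor virus promoter drives the polyoma middle T oncogene, so that the driver is a transgene of the mammary epithelium. From 7 weeks of age the mice received 5 mg/kg of an antibody by intraperitoneal injection 2 times per week for 6 weeks. The antibody was either B20-4.1.1, which blocks VEGF-A, or an isotype IgG2a control (clone C1.18.4). Dissociated tumors were sorted for viable cells before and after labeling with lipid-linked oligonucleotides that mark the tumor of origin, and 3 tumors were pooled in each droplet library. There were 2 isotype pools with 6 tumors and 3 B20-4.1.1 pools with 9 tumors. Since the tumors of a pool all received the same antibody, an effect of the pool and of the treatment cannot be told apart.

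Tumors held 4014509 to 23726246 gene UMIs and 752 to 3287 kept cells. The gated cells held 811380 UMIs in all, with a median of 6876 per cell (range 1140 to 21203) and a median of 2068 genes. Mitochondrial UMIs made up a median of 3.43% of a gated cell in isotype pool 1, which stood apart from isotype pool 2 (1.70%) and the B20-4.1.1 pools (1.08%, 1.41% and 1.44%). No barcode was shared by tumors of the same pool, and 94 were shared by tumors of different pools, among them 1 barcode of a gated cell. In 3 B20-4.1.1 tumors, which gave 16 gated cells, T cells made up 62.2%, 70.7% and 70.6% of kept cells, and results were therefore also computed without them.

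MHC class II was common, with 2710 kept cells at the required sum, and the marker sum left 232 of them. The complement limit left 222, the Cd3 and Cd79a limits 194 and then 118, and the keratin limit 107. At the edge of the marker threshold, 14 gated cells had a marker sum of exactly 2 and 10 a sum of 3, while 27 cells that met every other condition had a sum of 1 and 257 a sum of 0. The complement sum was 0 in 91 gated cells and 1 in the other 16, and no cell was lost for a complement sum of 2 or 3 alone. The edge was therefore thin on the complement side and wider on the marker side.

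Flt3, the receptor for the growth factor on which dendritic cells depend, had a UMI in 57.0% of gated cells. Ccr7 was detected in 46.7%, Fscn1 in 37.4%, Cd209a in 29.0%, Xcr1 in 19.6% and Clec9a in 15.0%. Each cell was given to the group whose marker sum was the largest among Xcr1 plus Clec9a, Cd209a alone, and Fscn1 plus Ccr7. The 50 Fscn1/Ccr7 cells were 46.7% of the gate (exact 95% binomial interval 37.0 to 56.6), the 30 Cd209a cells 28.0% (19.8 to 37.5) and the 21 Xcr1/Clec9a cells 19.6% (12.6 to 28.4). A further 6 cells carried Flt3 alone, and no cell was tied. Intervals here cover counting error only.

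The groups were nearly exclusive, since 5 of 107 cells held UMIs of more than 1 marker group. Flt3 was found in 90.5% of Xcr1/Clec9a cells, 52% of Fscn1/Ccr7 cells and 33.3% of Cd209a cells. Median depth differed between them, at 9578 UMIs in Xcr1/Clec9a, 6842 in Cd209a and 5809 in Fscn1/Ccr7 cells. When every cell was thinned to 1000 UMIs, 77 of the 107 cells (72.0%) kept their group.

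**Figure D1:**
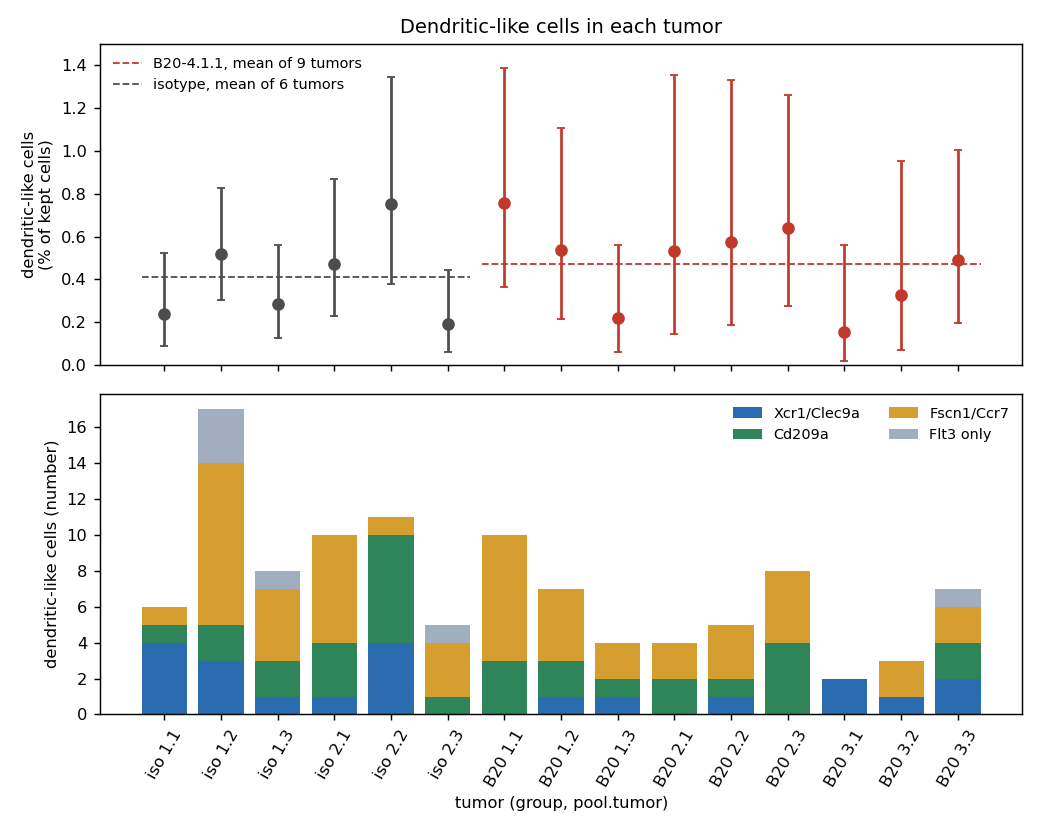
Upper panel, gated cells as a percent of kept cells in each of the 15 tumors (points, with exact 95% binomial intervals as bars and group means as dashed lines), and lower panel, their number by marker group, with tumors named by group, pool and tumor. Tumor 2 of isotype pool 1 gave the most cells (17) and tumor 1 of B20-4.1.1 pool 3 the fewest (2).

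The gate was first compared with all other kept cells, by the mean over the 5 pools of the log2 ratio of CPM (pseudocount 10 CPM). Of the 25 leading genes outside the rule, 3 were chemokines, and they took the first ranks. Ccl22, a chemokine that draws Ccr4-bearing T cells, led at 5.80 ± 0.73 (SD, n = 5 pools) and was detected in 41.1% of gated and 0.257% of other cells. Its relative Ccl17 followed at 5.29 ± 1.17, in 26.2% of gated and 1.22% of other cells. Both were near background in T cells, which should lack them, at 0.0477% and 0.0715% with a median depth of 3127 UMIs.

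Ccl5, which recruits T cells and monocytes, reached 4.93 ± 0.79 and 43.9 UMIs per 10000, but it was in 30.8% of gated and also 23.6% of T cells, which express it themselves. Il4i1, a secreted enzyme that breaks down aromatic amino acids, was at 4.73 ± 0.47 and in 42.1% of gated cells. The cysteine protease inhibitor gene Cst3 was detected in every gated cell (4.64 ± 0.51) and in 45.2% of T cells. Irf8 was at 4.58 ± 0.44 and the lysosomal hydrolase gene Naaa at 4.40 ± 0.74. Detection of these genes was close to that in the C1q-positive myeloid cells defined below. Cst3 was in 99.9% of those cells, Irf8 in 65.1% (65.4% of gated cells) and Naaa in 32.0% (35.5% of gated cells). Their levels were higher in gated cells, in the unit given for Ccl5. Cst3 was at 195 against 78.2, Irf8 at 9.71 against 3.13 and Naaa at 5.19 against 0.906. Cbfa2t3, a transcriptional corepressor, was among the steadiest of the 25 leading genes over pools, at 4.32 ± 0.28.

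Set against the 1476 C1q-positive myeloid cells, which passed the same MHC class II, Cd3, Cd79a and keratin limits but held at least 5 complement UMIs, the gate was poor in macrophage genes. Apoe, a lipid carrier that macrophages make in quantity, was lower by a log2 ratio of -8.67 ± 1.13, at 0.887 against 335 UMIs per 10000. It was in 33.6% of gated cells, 98.6% of the C1q-positive cells and 25.5% of T cells. The membrane gene Ms4a7 (-6.81 ± 0.54), the fractalkine receptor gene Cx3cr1 (-6.55 ± 0.21) and the lipid receptor gene Trem2 (-5.63 ± 0.54) were also among the lowest. Cx3cr1, Mertk and Pf4 had 0 UMIs over all 107 cells.

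On the other side of that contrast stood Ccl5 (5.96 ± 1.38), Ccl22 (5.88 ± 0.83) and Ccl17 (5.52 ± 1.17), followed by the serine protease inhibitor family gene Serpinb6b (5.31 ± 0.46). Ly75, the endocytic receptor DEC-205 of dendritic cells, was at 3.90 ± 0.80. It was in 38.3% of gated and 0.136% of C1q-positive myeloid cells. Shares of cells with a UMI follow depth, and C1q-positive myeloid cells had a median of 4970 UMIs against 6876 in the gate.

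**Figure D2:**
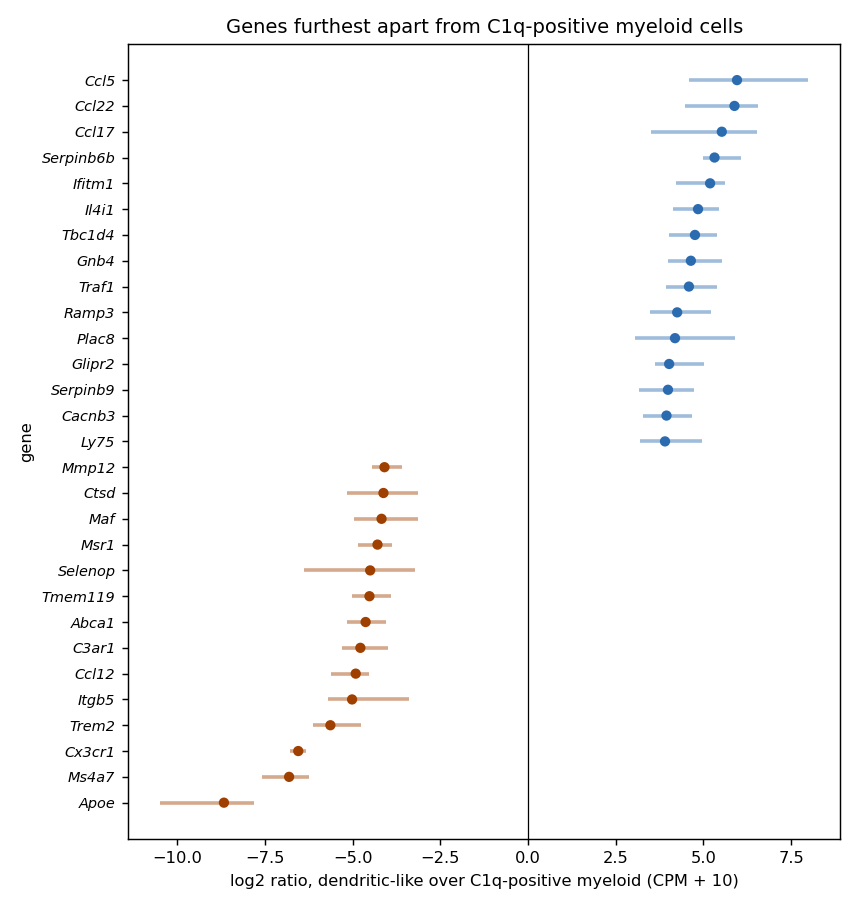
Log2 ratio of gated over C1q-positive myeloid cells for the leading genes outside the rule (15 higher, 14 lower), with points for the mean over 5 pools and bars from the lowest to the highest pool. Chemokines lead on the positive side and Apoe, at -8.67, on the negative side.

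The 21 Xcr1/Clec9a cells, found in 11 tumors, carried the type 1 conventional program as a block. All 17 genes of the type 1 list had their highest share of positive cells there, and the list summed to 93.6 UMIs per 10000 against 13.8 in Cd209a and 13.7 in Fscn1/Ccr7 cells. Several of these genes were picked for this cell type from general knowledge, and the group was cut on Xcr1 and Clec9a, so the count describes the group and tests nothing. Naaa and Ppt1, which act in the lysosome, Wdfy4, which is needed for cross-presentation, and the integrin gene Itgae were detected in 21 of 21 cells. Among the other gated cells Naaa was in 19.8%, Wdfy4 in 12.8% and Itgae in 9.30%.

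The double-stranded RNA sensor gene Tlr3 and the C-type lectin gene Cd207 were each in 66.7% of Xcr1/Clec9a cells and 1.16% of other gated cells. Irf8 was in 100%, the zinc finger factor gene Zbtb46 of conventional dendritic cells in 81.0%, the adhesion gene Cadm1 in 76.2% and Batf3 in 61.9%. The checkpoint receptor gene Havcr2, which encodes TIM-3, was in 95.2%, against 13.3% of Cd209a and 8% of Fscn1/Ccr7 cells. Irf4 and Sirpa, genes of type 2 cells, had no UMI in any of the 21. In T cells Wdfy4 was in 0.215%, Zbtb46 in 0.692% and Itgae in 24.4%.

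Antigen presentation genes differed in detection and in level. The class II transactivator gene Ciita was in 85.7% of Xcr1/Clec9a cells, 36.7% of Cd209a cells and 14% of Fscn1/Ccr7 cells. Tap1, which pumps peptides to MHC class I, was in 76.2%, 40% and 54%. Of the 15 MHC class I and cross-presentation genes, 8 had their highest share of positive cells in the Xcr1/Clec9a group, which was also the deepest. By level the class I list was lower there than in Fscn1/Ccr7 cells, at 94.4 against 171 UMIs per 10000, and the class II list lower than in Cd209a cells, at 34.4 against 46.1.

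**Figure D3:**
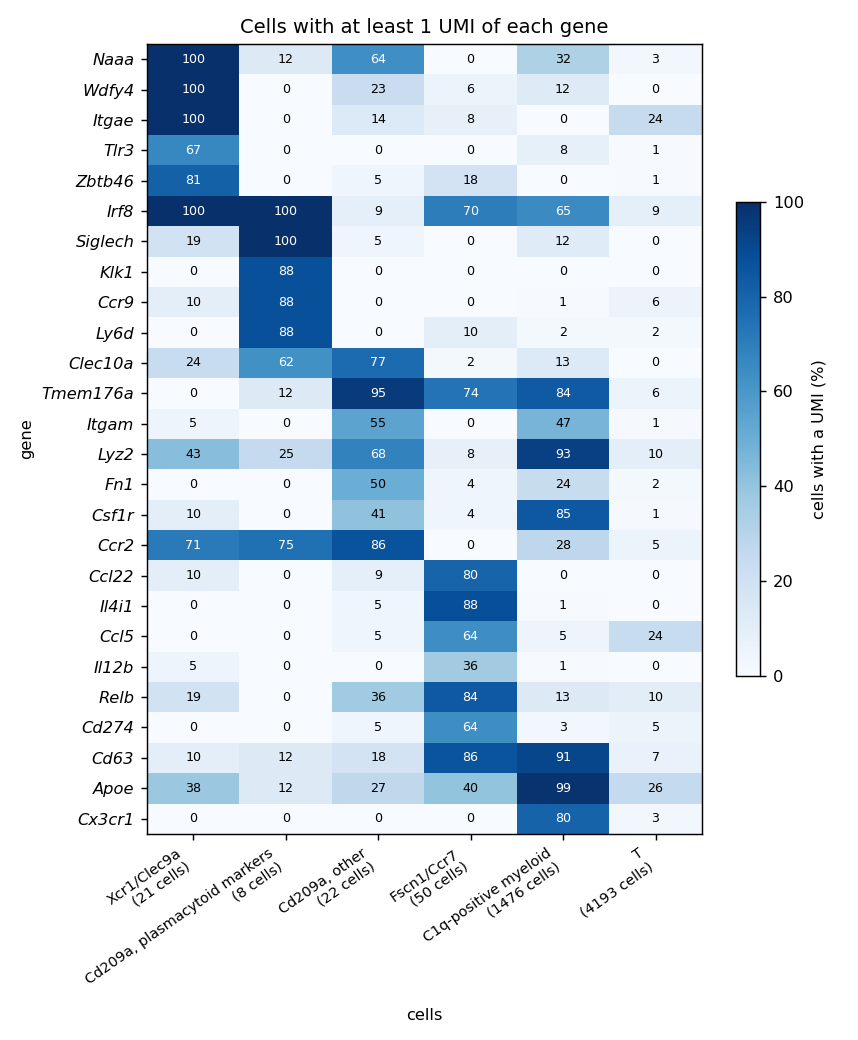
Percent of cells with at least 1 UMI (color and number) for selected genes in rows, in the marker groups of the gate, with Cd209a cells split by plasmacytoid markers, and in C1q-positive myeloid and T cells. Naaa, Wdfy4 and Itgae reach 100% in the Xcr1/Clec9a column, Siglech 100% in the plasmacytoid-marker column, and Relb, Il4i1 and Ccl22 84%, 88% and 80% in the Fscn1/Ccr7 column.

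The 30 Cd209a cells were the least uniform group, and the type 2 name held for only some of them. Of the 17 genes of the type 2 list, 10 had their highest share of positive cells there, among them the galactose lectin gene Clec10a (73.3%). Irf4 was in 30%, Sirpa in 33.3% and Zbtb46 in 3.33%, or 1 cell. The 15 leading genes were of mixed kinds, from the lysozyme gene Lyz2 in 56.7% (71.1 UMIs per 10000), the lipopolysaccharide coreceptor gene Cd14 in 60% and the fibronectin gene Fn1 in 36.7% to Clec10a and the plasmacytoid gene Siglech (30%). The monocyte receptor gene Ccr2 was in 83.3% and the NADPH oxidase gene Cybb in 73.3%. T cells held Lyz2 in 9.59% and Clec10a in 0.238%.

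Within this group 8 cells from 6 tumors held at least 3 of the plasmacytoid markers Siglech, Klk1, Cox6a2, Ccr9 and Ly6d, a split made after the values were seen. Siglech, Tcf4, Bst2 and Irf8 had UMIs in 8 of 8 of them, and Itgam, Csf1r, Fn1 and Mrc1 in none. Their H2-Ab1 level was 20.3 UMIs per 10000, against 105 in the other 22 Cd209a cells. Including 1 cell of the Flt3-only group, 9 plasmacytoid-marker cells were found in 7 tumors.

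The other 22 Cd209a cells had Ccr2 in 86.4%, Clec10a in 77.3%, Lyz2 in 68.2%, the integrin gene Itgam in 54.5%, Fn1 in 50% and the CSF-1 receptor gene Csf1r in 40.9%. Irf8 was in 9.09% of them. At least 2 of the macrophage markers Adgre1, Mrc1, Fcgr1, Mertk and Csf1r were present in 10 of the 30 Cd209a cells, from 7 tumors, and in no other gated cell. The Cd209a cells are thus called here by their marker gene and not by a cell type.

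The 50 Fscn1/Ccr7 cells formed the largest group. Of 24 genes on the mature list, 23 had their highest share of positive cells there, and the list summed to 183 UMIs per 10000 against 12.0 in Xcr1/Clec9a and 13.8 in Cd209a cells. As with the type 1 list, these genes were chosen as companions of Fscn1 and Ccr7, so the count is a description. Samsn1, an adaptor gene of hematopoietic cells, was in 94%, the Rab regulator gene Tbc1d4 in 96%, Il4i1 in 88%, the NF-kB gene Relb in 84% and Ccl22 in 80%.

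Ccl5 averaged 115 UMIs per 10000 in Fscn1/Ccr7 cells and was found in 64% of them, while a single Cd209a cell and no Xcr1/Clec9a cell had a UMI. Across pools these cells averaged 24.1 and 174 per 10000 under isotype and 88.4, 207 and 138 under B20-4.1.1, and these ranges overlap. Il12b, a subunit of the T cell-polarizing cytokines IL-12 and IL-23, was in 36% (10.6 per 10000), and Il12a, the partner chain that makes IL-12, had no UMI in the gate. Il27 and Il10 were likewise at 0 of 811380 UMIs.

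Ligands for T cells of both signs were found together in the Fscn1/Ccr7 cells. The maturation marker gene Cd83 was in 88%, the costimulatory genes Cd40 and Cd86 in 50% each and Cd80 in 44%, and 8 of 12 costimulation genes had their highest share of positive cells there. The PD-1 ligand genes Cd274 and Pdcd1lg2 were in 64% and 26%, and Cd200 in 48%. Cd274 had no UMI in Xcr1/Clec9a cells, and T cells held it in 5.39%. The cytokine genes Il15 (34%) and Cxcl16 (92%) were also highest in this group.

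Some genes had their lowest shares there. The class II peptide-loading chaperone gene H2-DMb1 was in 12% of Fscn1/Ccr7 cells, against 95.2% of Xcr1/Clec9a and 93.3% of Cd209a cells. Naaa and Ccr2 had no UMI in any of the 50. The MHC class I genes H2-K1 and B2m ran the other way, with H2-K1 at 31.6 UMIs per 10000 against 12.4 and 11.1, and B2m at 48.6 against 20.2 and 14.1 in Xcr1/Clec9a and Cd209a cells.

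Signs of other cell types were looked for in the gate with whole marker lists. No gated cell held 2 of the T cell genes Trac, Trbc1, Trbc2, Cd2 and Bcl11b. Epithelial RNA was detected, with the milk protein gene Csn3 in 81.3% and Wfdc18 in 89.7% of gated cells, close to the shares in T cells of 72.4% and 86.2%. These epithelial transcripts, which T cells held at like shares, are read here as background.

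The first question on treatment was whether VEGF-A blockade changed how many dendritic-like cells a tumor held. In isotype tumors the gate took 0.190% to 0.753% of kept cells (median 0.379%, mean 0.410% ± 0.213, SD, n = 6), and in B20-4.1.1 tumors 0.155% to 0.758% (median 0.532%, mean 0.470% ± 0.198, n = 9). The ranges overlapped almost entirely and the means differed by 0.0606 percentage points (exact two-sided permutation test over tumors, p = 0.573, adjusted p = 0.672 over 5 shares). Of Ptprc-positive cells, the leukocytes of the tumor, the gate was 1.72% ± 0.810 and 1.53% ± 0.861 (exact permutation p = 0.672). Over alternative gates, filters and sets of tumors the unadjusted p ranged from 0.153 to 1 for the share of kept cells.

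The makeup of the gate was compared in the 6 isotype and 5 B20-4.1.1 tumors with at least 5 gated cells. Fscn1/Ccr7 cells made up 41.4% ± 22.6 of the gate in isotype (9.09% to 60%) and 53.1% ± 15.5 in B20-4.1.1 tumors (28.6% to 70%), with an exact permutation p of 0.338. Cd209a cells were 26.3% ± 15.2 and 31.4% ± 11.1 (exact permutation p = 0.537), and Xcr1/Clec9a cells 23.9% ± 24.2 and 12.6% ± 12.6 (exact permutation p = 0.420). The adjusted p was 0.672 in each case. With 5 to 17 cells behind each tumor, no difference was detected, and the size of difference that could be detected was not computed. The spread between tumors exceeded every difference of means.

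Gene expression was compared between treatments on UMIs summed over the gated cells of each pool, since only 3 isotype tumors and 1 B20-4.1.1 tumor held 10 gated cells. Isotype pools contributed 31 and 26 cells (232506 and 173351 UMIs), and B20-4.1.1 pools 21, 17 and 12 cells (144251, 158314 and 102958 UMIs). Each sum mixes the marker groups, so a change in their proportions and a change within cells cannot be told apart in it. Of 2719 genes tested with edgeR's quasi-likelihood test, 0 passed an adjusted p of 0.05 (0% called), 152 had an unadjusted p under 0.05 (5.59%), and DESeq2 called 2. All 3 B20-4.1.1 pools lay above both isotype pools for 253 genes (9.3%) and below both for 309 (11.4%).

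The gene with the smallest p was Ifi27l2a, a gene induced by interferon. Isotype pools held 35 and 65 of its UMIs and B20-4.1.1 pools 212, 155 and 141, or 1.51 and 3.75 against 14.7, 9.79 and 13.7 per 10000. The groups did not overlap and the log2 fold change was 2.32 ± 0.44 (SE), with an edgeR adjusted p of 0.711 and a DESeq2 adjusted p of 1.84e-04. Without isotype pool 2 it was 3.12 and passed the threshold (edgeR adjusted p = 0.0351). By tumor it ran from 0.194 to 4.59 per 10000 in isotype and from 0.465 to 22.8 in B20-4.1.1 tumors, and these overlap. T cells from the same pools also had it apart, at 3.32 and 2.83 against 6.59, 3.86 and 11.8 per 10000.

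Bst2, which encodes tetherin, an interferon-induced protein that holds budding virus at the cell surface, was next. The isotype pools had 2.45 and 2.77 UMIs per 10000 and the B20-4.1.1 pools 8.11, 9.85 and 6.90, a log2 fold change of 1.70 ± 0.35 (edgeR adjusted p = 0.711, DESeq2 adjusted p = 0.0150). Bst2 is also a plasmacytoid gene, and without the 9 plasmacytoid-marker cells its pools were at 2.01 and 1.85 against 6.48, 3.81 and 4.05 per 10000, still without overlap. Irf7, which encodes the factor that amplifies type I interferon production, was at 0.387 and 0.865 against 1.59, 3.22 and 3.50 per 10000 (log2 fold change 2.19 ± 0.51, edgeR adjusted p = 0.889). In both genes every B20-4.1.1 pool exceeded both isotype pools, but single tumors overlapped. Bst2 ran from 1.38 to 3.37 per 10000 in isotype and from 0.930 to 14.5 in B20-4.1.1 tumors. Irf7 ran from 0 to 1.95 and from 0.183 to 7.30. A single tumor gave 39 of the 51 Irf7 UMIs of B20-4.1.1 pool 2 and 14 of the 15 of isotype pool 2. In B20-4.1.1 pool 3, 14 of 36 came from 1 cell. Over the alternatives run, the log2 fold change ranged from 1.78 to 3.12 for Ifi27l2a, 1.30 to 1.81 for Bst2 and 1.68 to 2.85 for Irf7.

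Interferon-responsive genes as a list had the same direction. Of 22 genes 10 were expressed highly enough to be tested. All 10 had a positive log2 fold change, beside 1400 of all 2719 genes tested. An edgeR unadjusted p under 0.05 was found for 6 of the 10 (5.59% of all genes), and 0 passed the adjusted threshold. The median log2 fold change was 1.41, beside 0.02 over all genes tested, and in 6 of the 10 the B20-4.1.1 pools lay above both isotype pools (9.3% of all genes). Isg15, a ubiquitin-like protein gene, had 1.38 and 1.33 against 2.70, 2.27 and 4.57 UMIs per 10000 (log2 fold change 1.24 ± 0.41). The smallest log2 fold change of the list was that of Ly6e, at 0.19 ± 0.48.

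Summed over the list, isotype pools reached 21.2 and 18.2 UMIs per 10000 and B20-4.1.1 pools 43.4, 43.0 and 48.3. Without the 9 plasmacytoid-marker cells, of which 1, 2, 1, 4 and 1 came from the respective pools, the sums were 20.5 and 17.0 against 42.1, 36.2 and 44.0. In Fscn1/Ccr7 cells alone they were 21.5 and 17.5 against 53.3, 53.2 and 40.4, and in Xcr1/Clec9a cells 20.5 and 21.3 against 42.4, 47.0 and 55.2, which rest on 8 and 5 against 2, 1 and 5 cells. The Cd209a sums overlapped (31.5 and 19.0 against 24.9, 35.5 and 26.0).

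The same sum was read in other cells of the pools. In C1q-positive myeloid cells it was 17.9 and 11.8 against 17.9, 12.5 and 35.1, and in T cells 19.0 and 13.0 against 17.6, 13.5 and 28.4. In the 284 C1q-low MHC II cells, which met the gate except for a marker sum of 0 or 1, it was 23.9 and 17.8 against 55.8, 19.7 and 51.0. The treatments overlapped in all of these. Single interferon genes were nevertheless apart outside the gate. In C1q-positive myeloid cells Bst2 was at 1.39 and 1.44 against 2.43, 1.88 and 3.12 per 10000, and in C1q-low MHC II cells Ifi27l2a was at 6.69 and 10.1 against 22.7, 11.9 and 27.8 and Irf7 at 0.328 and 0.250 against 2.77, 0.716 and 1.73. Over all other kept cells Ifi27l2a, Bst2, Irf7 and Isg15 were likewise higher in every B20-4.1.1 pool than in both isotype pools. Whether the difference in dendritic-like cells exceeded that in the other cells was not tested.

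**Figure D4:**
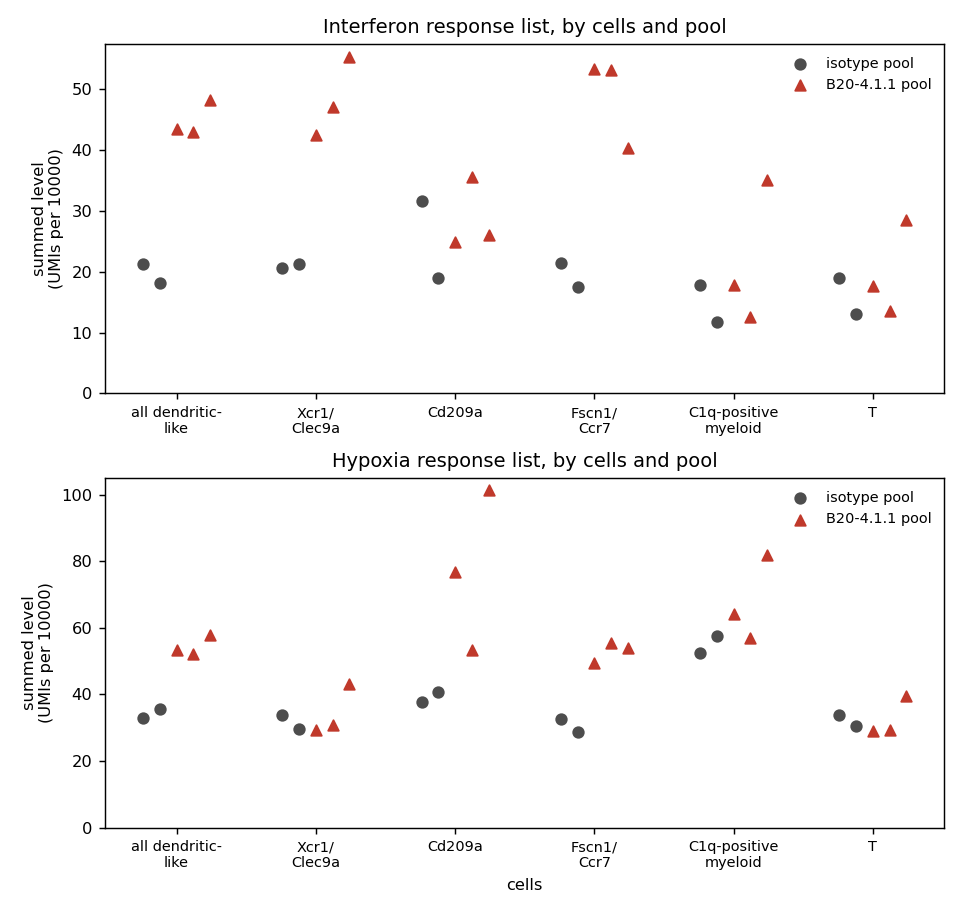
Summed UMIs per 10000 of the interferon and hypoxia lists in each pool, for gated cells, their marker groups, C1q-positive myeloid cells and T cells, with 1 point per pool colored by treatment. In gated cells the 3 B20-4.1.1 pools lie above both isotype pools for both lists, and in C1q-positive myeloid and T cells the treatments overlap.

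Promoter windows of these genes, from 250 bases before to 50 after the RefSeq start (GRCm38.p6), were searched on both strands for GAAANNGAAA, the core of the element bound by interferon-activated factors. Windows existed for 6 of the 10 tested genes, and 4 of these 6 held a match, compared with 3.44% of all 32851 windows. Over the whole list, tested or not, 9 of the 15 genes with a window held a match. The list was chosen as interferon-responsive genes, so these counts describe the list and test no difference between treatments. Bst2 and Isg15 are shown as examples that combine a match with separated pools. They carried overlapping matches that start 130 and 78 bases before the gene start. Gbp2 also combined a match, 59 bases before the gene start, with separated pools, and its sequence is not shown. Irf7 is shown as the gene with the third smallest p, with no match in its window. Matches are in capitals, each sequence is written 5′ to 3′ on the strand of the gene, and a match says nothing about binding in these cells.
Bst2, chr8:71537423-71537722, minus strand: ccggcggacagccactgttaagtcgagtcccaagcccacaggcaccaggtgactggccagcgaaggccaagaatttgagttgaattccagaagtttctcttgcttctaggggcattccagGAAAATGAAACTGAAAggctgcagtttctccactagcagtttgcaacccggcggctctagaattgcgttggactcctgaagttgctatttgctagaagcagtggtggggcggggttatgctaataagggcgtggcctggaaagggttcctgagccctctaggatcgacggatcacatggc
Isg15, chr4:156200769-156201068, minus strand: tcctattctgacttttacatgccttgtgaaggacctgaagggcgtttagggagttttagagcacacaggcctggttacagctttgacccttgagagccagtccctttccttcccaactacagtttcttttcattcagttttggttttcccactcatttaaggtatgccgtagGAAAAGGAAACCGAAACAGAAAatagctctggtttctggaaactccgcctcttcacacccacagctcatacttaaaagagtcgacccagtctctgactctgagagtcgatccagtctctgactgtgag
Irf7, chr7:141266375-141266674, minus strand: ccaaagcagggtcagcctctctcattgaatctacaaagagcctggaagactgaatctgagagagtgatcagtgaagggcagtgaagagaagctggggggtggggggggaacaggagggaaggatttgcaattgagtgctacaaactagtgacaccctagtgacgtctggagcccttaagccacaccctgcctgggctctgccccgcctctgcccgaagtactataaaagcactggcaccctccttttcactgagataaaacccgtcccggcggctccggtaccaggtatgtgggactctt

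Hypoxia-responsive genes, many of them enzymes of glycolysis, were the second list examined, because blocking VEGF-A can starve tumors of oxygen. Of 40 genes 20 were tested, and 17 were higher and 3 lower in B20-4.1.1 pools, beside 1400 higher of all 2719 genes tested. An edgeR unadjusted p under 0.05 was found for 8 of the 20 (5.59% of all genes), and 0 passed the adjusted threshold. The median log2 fold change was 0.57 (0.45 to 0.92 over the alternatives), and the B20-4.1.1 pools lay above both isotype pools in 10 of the 20 genes (9.3% of all genes). Pgk1, which encodes phosphoglycerate kinase, was at 1.08 and 1.62 against 3.88, 2.72 and 3.21 UMIs per 10000 (log2 fold change 1.32 ± 0.38).

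Gapdh followed at 2.28 and 3.12 against 5.75, 6.06 and 4.76 (1.07 ± 0.35), and the lactate dehydrogenase gene Ldha at 3.48 and 3.63 against 5.13, 6.44 and 8.16 (0.91 ± 0.35). Hilpda, which encodes a lipid droplet protein induced by hypoxia, had 3 and 1 UMIs against 7, 10 and 27, a log2 fold change of 3.51 ± 0.92 (edgeR adjusted p = 0.889). The 27 UMIs of B20-4.1.1 pool 3 came from 1 cell, and 5 of the 9 B20-4.1.1 tumors had none. Hif1a itself was at -0.14 ± 0.45. Of the 8 genes with an unadjusted p under 0.05, Pgk1, Gapdh, Ldha, Tpi1 and Gpi1 encode enzymes of glucose breakdown, and Mif, Higd1a and Hilpda do not. The log2 fold changes of Hk2, Pfkfb3 and Mxi1 lay between 0.01 and 0.04.

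The hypoxia list summed to 32.8 and 35.6 UMIs per 10000 in isotype and 53.4, 52.0 and 57.8 in B20-4.1.1 pools. By marker group the sums were separate in Cd209a cells (37.7 and 40.8 against 76.8, 53.3 and 101, from 5 and 10 against 6, 7 and 2 cells) and Fscn1/Ccr7 cells (32.7 and 28.8 against 49.3, 55.4 and 54.0) and overlapped in Xcr1/Clec9a cells (33.8 and 29.6 against 29.3, 30.9 and 43.0). In C1q-positive myeloid cells the sums were 52.3 and 57.6 against 64.0, 57.1 and 82.0, and in T cells 33.8 and 30.5 against 29.0, 29.3 and 39.6. Treatments overlapped in both of these. Single genes were apart outside the gate here too, with Pgk1 at 2.10 and 1.86 against 2.27, 2.27 and 3.20 in C1q-positive myeloid cells and Hilpda at 0.556 and 0.464 against 3.20, 1.21 and 3.43 in C1q-low MHC II cells. Both were also apart over all other kept cells.

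Among lists of dendritic identity, the mature and type 1 lists were less one-sided than the interferon and hypoxia lists, but the plasmacytoid list was not. Over all genes tested, 1400 were higher and 1319 lower in B20-4.1.1 pools. On the mature list 22 of 24 genes were tested, with 17 higher, 5 lower and a median log2 fold change of 0.24 (0.08 to 0.42 over the alternatives). Ccl17 was at 5.16 and 1.04 against 6.52, 9.16 and 6.70 UMIs per 10000 (1.27 ± 0.55), with the treatments separate, and Ccl22 at 8.43 and 2.25 against 7.14, 9.29 and 6.70 (0.55 ± 0.49), with overlap. Il12b was counted 109 and 109 times in isotype pools but 110, 1 and 1 times in B20-4.1.1 pools, so its log2 fold change of -1.02 ± 1.10 rested on B20-4.1.1 pool 1, and without that pool it was -5.99 (edgeR adjusted p = 0.00259).

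On the type 1 list 14 of 17 genes were tested, 10 of them lower and 4 higher, with a median of -0.61. This median ranged from -1.48 to 0.10 over the alternatives, so its sign depended on them. The number of Xcr1/Clec9a cells behind it was 8 and 5 in isotype pools and 2, 1 and 5 in B20-4.1.1 pools. On the plasmacytoid list 7 of 10 genes were tested and all 7 were higher, with a median of 1.06 (0.03 to 1.74 over the alternatives), and 2 of the 7 (Bst2 and Irf7) are also interferon genes. Of the 7, 4 had an edgeR unadjusted p under 0.05 (5.59% of all genes). In 3 of the 7 the B20-4.1.1 pools lay above both isotype pools (9.3% of all genes).

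The monocyte list had 7 of 10 genes tested, 7 higher and a median of 1.31 (0.48 to 1.71 over the alternatives), and its sum was set by single pools, at 6.80 and 41.1 against 7.63, 92.2 and 24.9 UMIs per 10000. Of 12 tested MHC class I genes 10 were higher (median 0.38), and the 10 tested MHC class II genes were split 6 to 4 (median 0.03). Of 8 costimulation genes 6 were higher (median 0.10), and of 6 inhibitory genes 2 (median -0.41). Of 8 type 2 genes 6 were higher (median 0.71) and of 12 cytokine and chemokine genes 10 (median 0.62). Stress and immediate early genes, which respond to tissue dissociation, had 5 of 15 higher (median -0.31). None of these lists held a gene that passed the adjusted threshold.

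**Figure D5:**
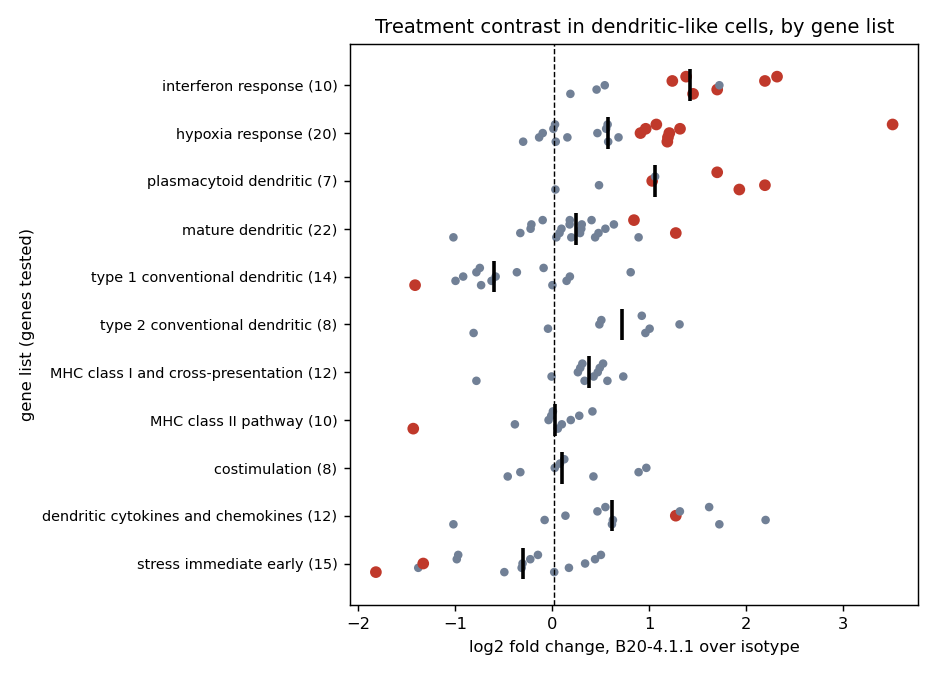
Log2 fold change of B20-4.1.1 over isotype pools for each tested gene, by list, with red points for an unadjusted p under 0.05, black bars for the list median and a dashed line for the median of all genes tested (0.02). The interferon list lies farthest to the right among lists of 10 or more tested genes, with a median of 1.41.

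Genes with lower levels in B20-4.1.1 pools were led by Trf and Cdh1. Trf, the iron carrier transferrin, had 61 and 22 UMIs in isotype pools and 9, 4 and 6 in B20-4.1.1 pools (log2 fold change -2.01 ± 0.49). T cells had it at 3.43 and 1.44 against 1.31, 0.774 and 1.27 per 10000, also with the treatments separate. Cdh1, the adhesion gene E-cadherin, had 39 and 13 against 3, 1 and 4 UMIs (-2.54 ± 0.64), with 5.52 per 10000 in the Cd209a cells of isotype pool 1. In isotype pool 2 it was found in 3.85% of 26 gated cells, which is 1 cell. T cells had Cdh1 apart as well, at 1.59 and 1.66 against 0.516, 0.368 and 1.36 per 10000.

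The milk protein list summed to 7.53 and 3.63 per 10000 in the gated cells of isotype pools and 2.43, 2.08 and 2.33 in those of B20-4.1.1 pools. The epithelial list was at 11.7 and 7.10 against 7.49, 3.35 and 7.38. The part of epithelial RNA in the difference of Trf and Cdh1 was not tested. The remaining genes named by smallest p were Ctsl, a lysosomal protease gene (2.32 ± 0.63), Nsmaf (-2.22 ± 0.58), Man1a (-2.08 ± 0.56) and Ep300 (-1.64 ± 0.45), each with an edgeR adjusted p of 0.889. The Ctsl value was carried by the plasmacytoid-marker cells, which held 8.00 and 8.12 against 23.9, 21.6 and 30.2 UMIs per 10000. Without them Ctsl was at 0.134 and 0.239 against 0.214, 0 and 0.104, and the treatments overlapped.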

How the data were processed

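Single-cell RNA sequencing of 15 tumors (6 isotype, 9 B20-4.1.1) in 5 pools was used. The authors aligned reads with Cell Ranger 6.1.2 (per the file headers), assigned barcodes to tumors by 4 multiplexing oligonucleotides each, and deposited raw UMI counts per tumor (31053 genes), with no normalization. The submitters' processing notes also name Seurat 4.3.0 and mm10. The study's own UMI minimum was 2500, which 19533 of the 30340 deposited cells met together with the maximum and mitochondrial limit used here. No doublet caller was run, and the multiplex assignment, the UMI maximum and the exclusions of the gate stand in for one. The median gated cell had 97.9% of its multiplexing UMIs from its own tumor's oligonucleotides, and 1 gated cell had under 50%.

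The gate, marker groups, gene lists and rules were chosen with earlier results of these data known. The plasmacytoid split, the checks for other cell types and the removal of T cell-rich tumors were chosen after values had been seen. Hypoxia classes of tumors are not in the labels and were not compared. For shares, the difference of group means was tested by exact permutation (two-sided) of 5005 splits of the tumors (or all splits of the tumors with at least 5 gated cells). Pool-level permutations of 2 against 3 pools cannot give a p below 0.1. Sums per tumor had been planned for gene tests, with sums per pool where fewer than 3 tumors per group held 10 gated cells, and the pools were therefore used. Genes were tested with edgeR 4.0.16 (TMM, filterByExpr, quasi-likelihood F test, two-sided, Benjamini-Hochberg). DESeq2 1.42.0 and limma 3.58.1 served as alternatives, in R 4.3.3, with Python 3.11.15, numpy 2.4.6, scipy 1.17.1 and pandas 2.3.3 elsewhere. Only the edgeR step was run on simulated counts with known fold changes, and the gate, marker groups and permutation tests were not. Nothing in the labels says that pools were made on separate days, and the p-values cover the spread between these pools or tumors.

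Named genes were the members of the lists, the 25 genes leading against other kept cells, the 15 leading in each direction against C1q-positive myeloid cells, the 15 leading in each marker group (in all cases detected in at least 20% of the cells), and the 5 per direction with the smallest p between treatments, since none passed the threshold. Some genes that these rules name are not reported here. T cells were cells with at least 2 Cd3 UMIs, no Cd79a, at most 1 complement UMI and at most 3 keratin UMIs. Levels are UMIs per 10000 UMIs of the cells summed, and compare a gene between cells. As 3' counts they carry no gene length.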

Additional observations from a re-analysis of the deposited data

How the results depend on the processing

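With 107 cells, counting limits every share and gene, and the pool sums give 5 libraries. The count of genes past the threshold was 23 with no filter on low counts and 2 with DESeq2, and 0 to 3 when a pool was left out (3 without isotype pool 2, namely Ifi27l2a, Crip1 and mt-Co3, and 1 without B20-4.1.1 pool 1, Il12b). It was 0 with tumor sums of at least 5 cells, with pool as a random block in limma voom on those tumors, at a UMI minimum of 2500, without T cell-rich tumors and without plasmacytoid-marker cells, the last 2 chosen after seeing the data. The difference in the share of Ptprc-positive cells, in percentage points, changed sign to 0.188 when cells were thinned to 2500 UMIs, 0.0606 with a marker sum of at least 3 and 0.242 without the T cell-rich tumors, and lay between -0.575 and 0.201 when a pool was left out. The difference in the share of kept cells lay between -0.00151 and 0.134 on leaving out a pool. For Cd209a cells the difference was -2.10 in tumors with at least 10 gated cells and -3.42 to 13.6 on leaving out a pool. It was -19.7 to -2.88 for Xcr1/Clec9a and 4.74 to 17.8 for Fscn1/Ccr7 cells. The hypoxia list median was 0.82 without the T cell-rich tumors and 0.45 to 0.80 on leaving out a pool. Of the 10 genes named by smallest p, none changed direction in the fits that tested them, and some settings left genes out. Ctsl was not tested without the plasmacytoid-marker cells, where its pools overlapped. Sums of at least 20 cells per tumor could not be run, as 0 tumors held that many. No paired analysis was possible because the labels carry no replicate numbers (pools were numbered in accession order) and each pool held 1 treatment.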

Other observations

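VEGF receptors were rare in dendritic-like cells. Nrp2, a semaphorin and VEGF-C coreceptor gene, was in 15.9% of gated cells and in 24% of Fscn1/Ccr7 cells, while Nrp1 was in 11.2%, with no UMI in Fscn1/Ccr7 cells. Kdr, the main VEGF-A signaling receptor, was in 6.54% and Flt1 in 1.87%, beside 0.191% of T cells for each. Genes of an endothelial list were also detected in the gate. All 5 had a UMI there, in a median of 3.74% of gated and 0.534% of other kept cells. All 5 had their highest share of positive cells in the Cd209a group, with a median of 10%. The part of endothelial RNA in the Kdr share was not tested. Vegfa itself had a UMI in 4.67% of gated and 12.0% of C1q-positive myeloid cells. None of the 9 genes on the list of VEGF ligands and receptors reached the level needed for a test between treatments.

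Osteopontin (Spp1) was detected in 71.0% of gated cells, but at 3.12 UMIs per 10000 and beside 57.0% of T cells, so its level was not separated from background. Among its receptor genes, Itgb1 was in 89.7% and Itga4 in 67.3%, with Itga4 at 5.76 UMIs per 10000 in Fscn1/Ccr7 cells and 1.31 in Xcr1/Clec9a cells. Itgb5 was in 1.87% of gated and 76.6% of C1q-positive myeloid cells. The cytokine receptor gene Csf2rb, which serves GM-CSF, was in 64.5% of gated and 0.715% of T cells. It was also in 54.2% of C1q-low MHC II and 40.7% of C1q-positive myeloid cells. The proliferation gene Mki67 was in 9.35% of gated cells and in 4.72% of T cells.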
